A study of Mus musculus with 18 samples.

Results

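Cartilage of the femoral condyles was compared between the injured right knee and the contralateral left knee 7 days after the anterior cruciate ligament (ACL) had been ruptured. The comparison used 6 of the 18 small RNA libraries of the study, chosen by their treatment label, with 3 libraries of injured cartilage and 3 of contralateral cartilage. All mice were male C57bl6 animals of 12 weeks. The right knee had received a single load of 12 N that ruptures the ligament, under isoflurane and with buprenorphine for pain, and the left knee of the same mice had received no load. At day 7 the cartilage caps of 4 mice were pooled for each library, so a library is a pool and not 1 animal. The study gives partial loss of cartilage by that day as the reason for the size of these pools. Whether this loss had a part in the differences between the knees was not tested. The labels do not say which injured and which contralateral library came from the same mice, and the libraries were compared as unpaired groups. A further 6 libraries of naive mice, which had received no load, and 6 libraries from day 1 after injury entered the model that estimated the spread between libraries. Of the 1412 mature microRNAs (miRNAs) in the table, 428 had enough reads to be tested.

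A miRNA is a short RNA that is cut from a hairpin precursor and guides a silencing complex to messenger RNAs that pair with its seed, the bases near its 5′ end. Each hairpin can give a mature miRNA from its 5′ arm (5p) and from its 3′ arm (3p), and many miRNAs are made together from 1 long transcript. The imprinted Dlk1-Dio3 region makes one of the largest groups of mammalian miRNAs, all from the maternally inherited chromosome, and these miRNAs are known for expression in the embryo, in brain and in other developing or regenerating tissues. In cartilage, miR-140 and miR-455 are the best known miRNAs and are made under the control of the chondrocyte factor Sox9, whereas miR-199 and miR-214 are typical of mesenchymal cells and fibroblasts.

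The mature sequences of the miRNAs on which the comparison turned are given from RefSeq (GRCm38.p6), 5′ to 3′, with the seed (bases 2 to 8) in capitals. The first set holds both arms of miR-335, whose 3p arm showed the largest change, and 3 miRNAs of the Dlk1-Dio3 region that were among the 5 smallest p-values of the comparison.
miR-335-3p: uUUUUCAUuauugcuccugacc
miR-335-5p: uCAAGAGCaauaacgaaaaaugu
miR-134-5p: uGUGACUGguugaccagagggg
miR-541-5p: aAGGGAUUcugauguuggucacacu
miR-382-5p: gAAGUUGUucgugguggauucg

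The next set holds neighbours within the Dlk1-Dio3 region whose sequences resemble each other. The 3p arms of miR-379 and miR-411 have the same seed, and miR-411-3p too was among the 5 smallest p-values. miR-300-3p and miR-381-3p differ in the seed by the substitution G4A, counted from the 5′ end of miR-300-3p, and share a run of 16 bases.
miR-379-3p: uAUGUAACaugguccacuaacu
miR-411-3p: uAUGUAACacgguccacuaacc
miR-300-3p: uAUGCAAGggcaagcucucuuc
miR-381-3p: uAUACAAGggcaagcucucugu

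The miR-34 family is shown because its members share seeds but did not all pass the test. miR-34b-5p has the seed of miR-34a-5p, and miR-34b-3p that of miR-34c-3p.
miR-34b-5p: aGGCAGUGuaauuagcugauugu
miR-34a-5p: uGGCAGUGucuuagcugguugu
miR-34b-3p: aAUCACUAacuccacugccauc
miR-34c-3p: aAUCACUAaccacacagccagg

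The last set holds the abundant miRNAs that were called, miR-31-5p, miR-152-3p beside miR-148a-3p, which has the same seed, and 2 of the miRNAs that were lower in injured cartilage. The sequence of miR-199b-3p is that of miR-199a-3p. miR-21b differs from miR-21a-5p within the seed by C4U, counted from the 5′ end of miR-21a-5p.
miR-199a-5p: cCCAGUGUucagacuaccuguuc
miR-199a-3p: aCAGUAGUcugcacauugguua
miR-21a-5p: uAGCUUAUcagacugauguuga
miR-21b: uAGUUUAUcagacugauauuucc
miR-31-5p: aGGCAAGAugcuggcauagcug
miR-152-3p: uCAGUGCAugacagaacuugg
miR-148a-3p: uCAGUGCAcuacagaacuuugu
miR-200c-3p: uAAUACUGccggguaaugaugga
miR-326-3p: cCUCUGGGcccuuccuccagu
Of the 63 miRNAs called, 59 had a sequence in RefSeq, and these carried 56 distinct seeds.

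Total counts ranged from 758388 in injured replicate 1 to 4088852 in contralateral replicate 2, and a library held reads of 604 to 859 different miRNAs. Levels are given as CPM, the counts of a miRNA relative to the size of its library, after scaling by the trimmed mean of M-values (TMM), and 1 read was worth 1.37 CPM in injured replicate 1. Contralateral replicate 1 stood apart. On the first principal component of the 6 libraries (59.7% of the variance) it lay at -19.7, whereas the other contralateral libraries lay at -1.84 and -3.03 and the injured libraries between 5.36 and 10.96. It differed at least 4-fold from the mean of the other contralateral libraries for 35 of the 428 miRNAs, against at most 5 for any other library set against its own group. Skeletal muscle miRNAs were abundant in every library. miR-1a-3p, the main miRNA of muscle fibres, alone took between 6.67% and 24.2% of all reads, with the highest share in contralateral replicate 1. The cartilage miRNAs were clearly present, with miR-140-5p between 1912 and 6973 CPM.

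At day 7, 63 of the 428 miRNAs (14.7%) differed between injured and contralateral cartilage at an adjusted p under 0.05 (limma-voom with Benjamini-Hochberg adjustment, n = 3 and 3). Of these, 59 (13.8% of those tested) were higher and 4 (0.935%) were lower in the injured knee. The changes were large, since 56 of the 59 rises were at least 2-fold and 30 were at least 4-fold, whereas 2 of the 4 falls reached 2-fold and none reached 4-fold. The log2 fold change had a median of -0.05 over all miRNAs tested, and 47.2% of them were above 0. For 61 of the 63 miRNAs called, every injured library lay on the same side of every contralateral library, as it did for 114 (26.6%) of all miRNAs tested. The miRNAs that rose took between 4.31% and 7.28% of all reads in contralateral libraries and between 13.3% and 15.9% in injured libraries, counting both rows of miR-199a-3p and miR-199b-3p. With these counted once the shares were 3.12% to 5.12% and 9.68% to 12.0%. The rises were not confined to scarce miRNAs. Their mean over the 6 libraries had a median of 47.7 CPM, against 50.3 CPM for all miRNAs tested. Of the 59, 10 had a mean of at least 1000 CPM, again counting both rows of miR-199a-3p and miR-199b-3p.

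**Figure D1:**
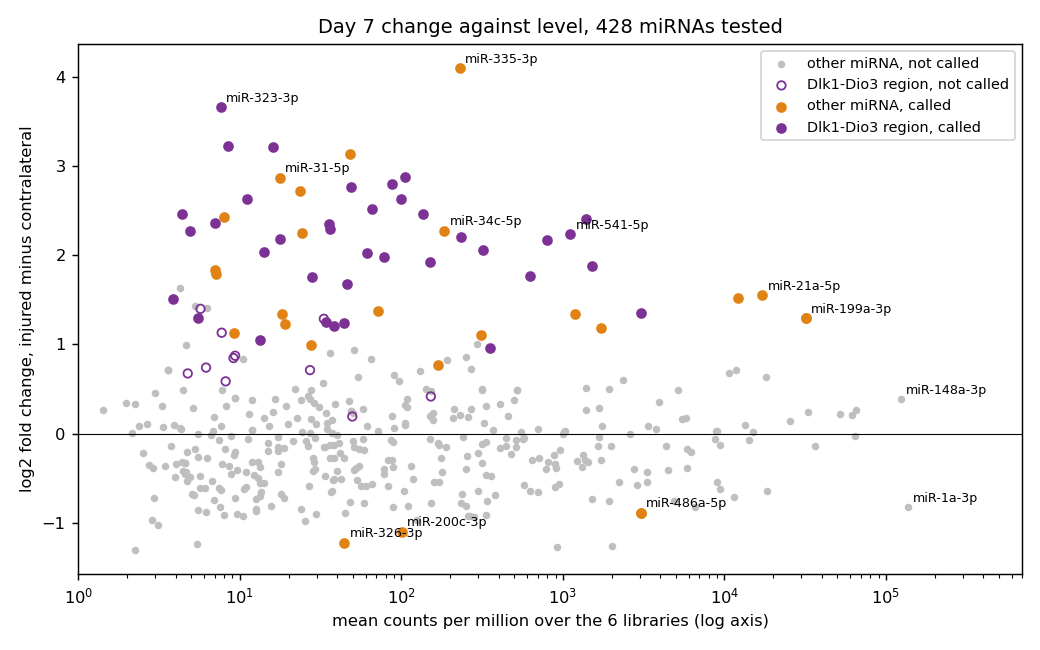
Mean level of each of the 428 miRNAs tested over the 6 day 7 libraries (CPM, log axis) against its log2 fold change, injured minus contralateral. Purple points (Dlk1-Dio3 region) and orange points (other miRNAs) that are filled were called, and open or grey points were not. Of the 63 called miRNAs, 59 lie above 0 and 4 below, and miR-335-3p has the largest change at 4.09.

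Without contralateral replicate 1, 70 miRNAs were called, of which 67 were higher. Of the 63 miRNAs called with all libraries, 54 were called again, all of them rises, and the 4 falls were not. The 5 rises that were not called again were miR-152-3p, miR-212-5p, miR-299a-5p, miR-369-3p and miR-434-3p. When each of the 6 libraries was left out in turn, 43 of the 63 miRNAs were called every time. A lower count of a miRNA in bulk tissue can come from fewer cells that make it or from less of it per cell, and a higher count likewise, and these cannot be told apart here.

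The imprinted Dlk1-Dio3 region on chromosome 12 gave 37 of the 59 rises. Of its 101 miRNAs in the table, 48 were tested, and 37 of these 48 were higher in injured cartilage and none lower. The other 11 tested miRNAs were not called, but each of the 48 log2 fold changes was above 0, from 0.19 to 3.66 with a median of 1.95, against a median of -0.14 over the 380 tested miRNAs outside the region. The filter asked for enough reads only in as many libraries as the smallest group holds. A scarce miRNA could thus enter through the injured libraries alone, which favours a positive sign and a large value. Of all 59 rises, 19 had a contralateral mean under 10 CPM. Outside the region 26 of 380 miRNAs (6.84%) were called, 22 of them higher. The remaining 53 miRNAs of the region had too few reads, and 7 of these had no read in any of the 6 libraries. Summed over the tested miRNAs of the region, the level was 5793, 5102 and 4389.6 CPM in the contralateral libraries and 15903, 17129 and 17124 CPM in the injured libraries. The injured sum was 3.28 times the contralateral sum, and 3.52 times without contralateral replicate 1. Without that library 36 of the 48 miRNAs were called, and where at least 10 counts were required in every library 23 of the 25 that remained.

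The tested miRNAs of the region span 172 kb from miR-673 to miR-410 (GRCm38 chromosome 12, 109572004 to 109743784), downstream of the start of Meg3, a long noncoding RNA gene of the maternal chromosome. Rises were found from miR-493-3p to miR-410-3p, in parts set apart by a gap. No tested miRNA with a position lies between miR-370-3p, which ends at 109618326, and miR-379-5p, which starts at 109709065. Near Meg3, 2 of 4 tested miRNAs rose, miR-337-5p and miR-493-3p, while both arms of miR-673 were not called (log2 0.59 and 0.74). Among the miRNAs made from the strand opposite to Rtl1, an imprinted gene needed in placenta and muscle, 6 of 8 rose. miR-3071-3p, on the strand of Rtl1 itself and overlapping miR-136-5p, was not called (log2 0.67). Both tested miRNAs that lie in introns of the noncoding Rian transcript, miR-341-3p and miR-370-3p, rose. In the cluster from miR-379 to miR-410, whose downstream end lies in the noncoding Mirg transcript, 27 of 33 rose, with a median log2 fold change of 1.93.

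**Figure D2:**
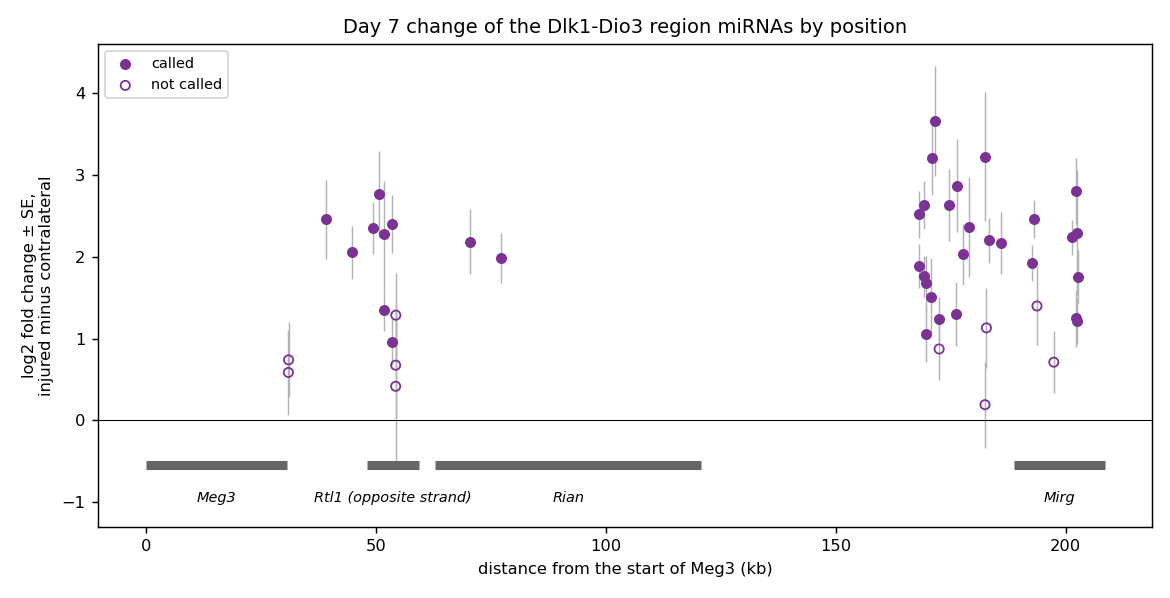
Log2 fold change (injured minus contralateral, with its standard error) of each tested miRNA of the Dlk1-Dio3 region that has a position in RefSeq, against its distance from the start of Meg3 in kb, with the extent of 4 genes drawn as grey bars. Filled points were called. Every point lies above 0, both near Rtl1 and in the miR-379 to miR-410 cluster, and called and uncalled miRNAs lie side by side.

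The smallest p-value of the comparison belonged to miR-134-5p, a miRNA best known from neuronal dendrites, which lies in an exon of Mirg (chromosome 12, 109734145 to 109734166). Its level was 57.7, 35.0 and 37.0 CPM in the contralateral libraries and 199.2, 249.8 and 238.8 CPM in the injured libraries. All injured libraries were well above all contralateral ones, a 5.51-fold rise (log2 2.46 ± 0.23 SE, limma-voom adjusted p = 4.75e-07). Its neighbour miR-541-5p, in an intron of Mirg, was nearly the same within each group, at 380.5, 390.3 and 395 CPM against 1808, 1758 and 1927 CPM. The rise was 4.71-fold (log2 2.24 ± 0.22 SE, limma-voom adjusted p = 5.32e-07). Next to them miR-382-5p, also in an intron of Mirg, went from 62.6 ± 8.73 to 237.0 ± 14.001 CPM (SD, n = 3 each). In the 6 naive libraries miR-134-5p lay between 43.0 and 56.2 CPM and miR-541-5p between 344 and 579.8 CPM, so the injured libraries were also above every naive library.

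The most abundant miRNA of the region was miR-127-3p, made opposite Rtl1, where it can direct cleavage of the Rtl1 transcript. It measured 2706, 1439 and 1253 CPM in contralateral and 4392, 4555 and 3931 CPM in injured cartilage. Contralateral replicate 1 was the highest of its group, but the groups did not overlap, and the rise was 2.55-fold with all libraries (limma-voom adjusted p = 0.000825) and 3.32-fold without that library. miR-434-5p, from the same strand, showed the opposite order within the contralateral group, with 246 CPM in replicate 1 and 653.5 and 499.5 CPM in the others, against 2209 to 2363 CPM in injured cartilage. It rose 5.28-fold. At the start of the downstream cluster, miR-379-5p went from 684 ± 280.1 to 2351 ± 216 CPM and miR-411-5p from 286 ± 68.3 to 960.98 ± 221.03 CPM (SD, n = 3 each), rises of 3.69-fold and 3.39-fold.

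The largest fold changes in the region belonged to scarce miRNAs. miR-323-3p had 0, 1.04 and 2.08 CPM in the contralateral libraries and 21.98, 8.60 and 11.96 CPM in the injured libraries, a fitted rise of 12.6-fold that rests on a few reads in the lower group. Somewhat more abundant, miR-380-3p had 3.43, 2.87 and 2.91 CPM against 23.4, 27.6 and 35.5 CPM, a 9.23-fold rise (log2 3.21 ± 0.45 SE, limma-voom adjusted p = 3.03e-05). The level of miR-543-3p was 4.12, 60.3 and 33.3 CPM against 133.3, 167.9 and 230.5 CPM. Its rise of 7.31-fold came down to 4.01-fold without contralateral replicate 1, which had by far the fewest reads of it. For miR-409-3p, by contrast, the contralateral libraries were close together at 15.8, 27.9 and 20.4 CPM, and the rise to 122.3, 133.5 and 205.9 CPM was 6.97-fold with and 6.47-fold without that library. miR-433-3p, opposite Rtl1, rose 6.80-fold, and miR-1193-3p rose 6.19-fold, from 2.35 to 4.16 CPM in contralateral to between 18.6 and 19.6 CPM in injured cartilage.

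Both arms of a hairpin were tested for 12 hairpins of the region, and the 3p arm had the larger log2 fold change in 10 of them. miR-411-3p rose 6.20-fold and miR-411-5p 3.39-fold, and miR-379-3p rose 5.73-fold and miR-379-5p 3.69-fold, although the 5p arm held more reads in both hairpins. The widest gap was that of miR-376b, whose 3p arm rose 9.33-fold (limma-voom adjusted p = 0.00621) whereas the 5p arm had a log2 fold change of 0.19 (limma-voom adjusted p = 0.87). That 3p arm was scarce, with a mean of 8.41 CPM over the day 7 libraries against 49.7 CPM for the 5p arm. Its log2 fold change had an SE of 0.79, so the size of this gap is uncertain. In the other direction, miR-434-5p rose 5.28-fold and miR-434-3p 1.94-fold. Outside the region the 3p arm had the larger change in 57 of 99 hairpins. The arms of a hairpin come from the same transcript and are not independent, and the difference between arms was not tested. The arms of miR-299a are partly complementary to each other, over a run of 18 bases, so reads counted without regard to strand could be shared between them.

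Over all 111 hairpins with both arms tested, 15 had both arms called, always in the same direction, and 6 had 1 arm called. Since 59 of the 63 calls were rises, the shared direction was largely given in advance. The 6 include miR-199b, whose called arm has the counts of miR-199a-3p. They also include miR-486a and miR-486b, whose called arms are 1 measurement.

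The largest rise of all was that of miR-335-3p, encoded within an intron of Mest (GRCm38 chromosome 6, bases 30741354 to 30741375), an imprinted gene expressed from the paternal chromosome in mesenchymal tissue. It measured 6.87, 38.4 and 42.4 CPM in contralateral cartilage and 306.4, 486.9 and 501.2 CPM in injured cartilage. The injured libraries were all far above the highest contralateral library, and naive libraries lay between 23.96 and 52.9 CPM. With all libraries the rise was 17.1-fold (log2 4.09 ± 0.44 SE, limma-voom adjusted p = 1.68e-06), and without contralateral replicate 1, the lowest, it was 10.96-fold (limma-voom adjusted p = 2.62e-07). The other arm, miR-335-5p, showed the same pattern at a lower level, with 0.687, 18.3 and 19.5 CPM against 45.3, 90.1 and 113 CPM. It rose 8.75-fold, and 4.42-fold without contralateral replicate 1, so that library decided much of its size.

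**Figure D3:**
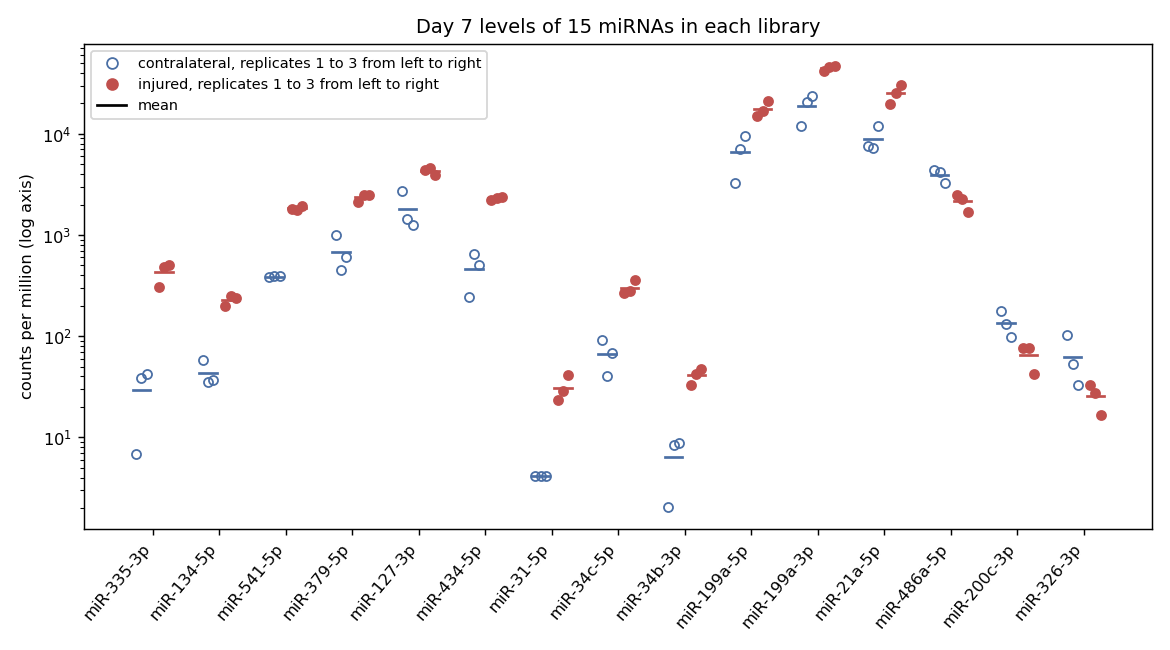
Level of 15 miRNAs (CPM, log axis) in the 3 contralateral libraries (open circles) and the 3 injured libraries (filled circles) of day 7, with group means as bars. The groups do not overlap for any of the 15 miRNAs. The gap is widest for miR-335-3p. Contralateral replicate 1, the left-hand open circle of each miRNA, is clearly the lowest for miR-335-3p, miR-434-5p, miR-34b-3p and both arms of miR-199a. It is narrowly the lowest for miR-541-5p and miR-31-5p.

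The miR-34 family, known as targets of p53, rose with the exception of miR-34a. Both arms of miR-34b and of miR-34c, which are made from 1 transcript on chromosome 9, were higher in injured cartilage, so that 4 of the 5 tested family members were called. miR-34c-5p, the most abundant, had 90.7, 40.2 and 67.8 CPM in contralateral and 267, 279.7 and 361 CPM in injured cartilage, a 4.83-fold rise (log2 2.27 ± 0.32 SE, limma-voom adjusted p = 3.18e-05). The 3p arm, miR-34b-3p, of its neighbour went from 2.06, 8.35 and 8.73 to 33.0, 42.1 and 47.8 CPM, a 6.58-fold rise, and miR-34b-5p rose 4.74-fold. For each of these 4 all injured libraries exceeded all contralateral ones. miR-34a-5p comes from another chromosome and has the seed of miR-34b-5p. It measured 47.4, 11.2 and 20.4 CPM against 26.1, 27.6 and 31.6 CPM, and the groups overlapped because of contralateral replicate 1. Its log2 fold change was 0.48, with a 95% confidence interval from -0.44 to 1.41, and 1.04 without that library (limma-voom adjusted p = 0.102).

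Among the abundant miRNAs, those of miR-199 and miR-214 rose together. In mouse, miR-199a and miR-214 are made from Dnm3os, a noncoding transcript opposite Dnm3 on chromosome 1, and miR-199a also from a copy opposite Dnm2. Of 6 tested members, 5 were called, and the sum over the list, with the identical miR-199a-3p and miR-199b-3p entered once, was 20940.5, 29516 and 34669 CPM in contralateral and 59314, 65926 and 70566 CPM in injured libraries. miR-199a-5p measured 3260.0, 7148 and 9505 CPM against 14848, 16963 and 21065 CPM. The lowest injured library was above the highest contralateral one, and the rise was 2.87-fold with all libraries (log2 1.52 ± 0.27 SE, limma-voom adjusted p = 0.00041) and 2.26-fold without contralateral replicate 1 (limma-voom adjusted p = 0.000248). The 3p products miR-199a-3p and miR-199b-3p, which have 1 sequence and the same count in every library, are 1 measurement. It went from 11949, 20821 and 23766 to 41502, 45785 and 46785 CPM, a 2.45-fold rise. Both arms of miR-214 rose too, miR-214-5p 2.53-fold and miR-214-3p 2.16-fold.

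miR-199b-5p was the exception, and its value rested on 1 library. It measured 5026 CPM in contralateral replicate 1 but 414 and 595 CPM in the other contralateral libraries, 669.5 to 930.0 CPM in injured libraries and at most 634 CPM in any naive library. With all libraries its log2 fold change was -0.31 (95% confidence interval -1.65 to 1.02, limma-voom adjusted p = 0.825), and without contralateral replicate 1 it was 0.80 (limma-voom adjusted p = 0.333). In neither case was it called.

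miR-21a-5p, a miRNA of the Vmp1 locus that is raised in many injured and fibrotic tissues, was among the most abundant that rose. Its level was 7532, 7183 and 11871 CPM in contralateral and 19837, 25533 and 30656 CPM in injured cartilage. The groups did not overlap, and the rise was 2.93-fold (log2 1.55 ± 0.34 SE, limma-voom adjusted p = 0.00241) with all libraries and 2.92-fold without contralateral replicate 1. The other arm, miR-21a-3p, rose 3.44-fold from a mean of 3.31 CPM, with overlapping groups. miR-21b, which is identical to miR-21a-5p at 18 of 22 positions compared, rose 2.59-fold. Whether reads of miR-21a-5p with errors were counted under it was not tested. miR-31-5p was scarce but uniform, with 4.12, 4.17 and 4.16 CPM in contralateral and 23.35, 28.96 and 40.9 CPM in injured cartilage. It rose 7.29-fold (log2 2.87 ± 0.33 SE, limma-voom adjusted p = 2.66e-06), and its naive libraries lay between 6.09 and 11.1 CPM.

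The remaining rises outside these groups were few. miR-152-3p, of the family of miR-148 and miR-152, rose 2.27-fold and its other arm miR-152-5p 1.70-fold, whereas miR-148a-3p, with the same seed as miR-152-3p, had a log2 fold change of 0.39 (95% confidence interval -1.03 to 1.80). miR-148a-3p measured 35116 CPM in contralateral replicate 1 and 126806 to 194254 CPM in the others. In the miR-23, miR-24 and miR-27 list, 1 of 11 tested members was called, miR-23b-5p, at 2.19-fold. miR-27b-3p of that list had 14179.5 ± 1947 CPM in contralateral and 22007 ± 985 CPM in injured cartilage (SD, n = 3 each). Its groups did not overlap, but its 1.56-fold difference missed the threshold (limma-voom adjusted p = 0.0707). Of 19 tested let-7 miRNAs, 1 was called, let-7c-1-3p, at 2.34-fold. miR-224-5p, miR-1983 and miR-212-5p, which belong to none of the lists, rose 3.56-fold, 2.54-fold and 1.99-fold.

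The 4 miRNAs that fell in injured cartilage stand for 3 measurements, since miR-486a-5p and miR-486b-5p had the same count in every library. miR-486, a miRNA of red blood cells that is also made in muscle, measured 4355, 4173 and 3230.0 CPM in contralateral and 2506, 2256 and 1690.1 CPM in injured cartilage. The groups did not overlap, and it fell 1.85-fold (log2 -0.89 ± 0.27 SE, limma-voom adjusted p = 0.0297). The level of miR-200c-3p, typical of epithelial cells, was 179, 132 and 98.2 CPM against 75.6, 76.5 and 42.5 CPM, a 2.14-fold fall. miR-326-3p, in an intron of Arrb1, had 102, 52.7 and 33.3 CPM against 33.0, 27.6 and 16.6 CPM, a 2.33-fold fall in which the lowest contralateral and the highest injured library nearly met. Contralateral replicate 1 was the highest library for each of them. Without it none of the falls was called, with limma-voom adjusted p = 0.0784 for miR-486a-5p, 0.175 for miR-200c-3p and 0.192 for miR-326-3p. Leaving out injured replicate 2 or injured replicate 3 likewise left 0 falls by limma-voom, and 28 miRNAs with all libraries were lower at an unadjusted p under 0.05.

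Over all 428 miRNAs tested, 4 (0.935%) fell, and none of these was called without contralateral replicate 1. Of the 4, miR-486, which is 1 measurement under both names, and miR-200c-3p were in lists of miRNAs typical of other cells. miR-326-3p was in no list. Of 7 tested erythroid miRNAs, 2 fell, both being miR-486, and none rose, with a median log2 fold change of -0.89, or -0.64 without contralateral replicate 1. The erythroid sum, with miR-486 entered once, was 9083, 6927 and 6052 CPM in contralateral and 4523, 4473 and 3391 CPM in injured libraries. miR-451a, the defining miRNA of red blood cells, was not called, at 3042, 1610.5 and 1147 CPM against 1232, 1269 and 780.5 CPM. Of the skeletal muscle miRNAs, none of 8 was called (median log2 fold change -0.86, and -0.35 without contralateral replicate 1). Their sum lay between 154413 and 280436 CPM in contralateral and between 79448 and 151212 CPM in injured libraries, and miR-1a-3p had a log2 fold change of -0.82 (95% confidence interval -1.82 to 0.18). None of 11 leukocyte miRNAs and none of 8 vascular miRNAs was called, with medians of -0.28 and -0.11. The vascular median was 0.04 without contralateral replicate 1 and 0.37 with the muscle level as a covariate. miR-142a-3p, the defining leukocyte miRNA, had 10184, 3298 and 5666 CPM against 3189 to 3612 CPM. Of 3 tested epithelial miRNAs, 1 fell, miR-200c-3p. Their sum was at most 203 CPM in any library, and the other 5 of the 8 in the table had too few reads to test. The muscle, erythroid and epithelial sums were thus lower in the injured libraries, and their part in the rises and falls was not tested. With the muscle level as a covariate, 68 miRNAs were called, 55 of them higher.

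**Figure D4:**
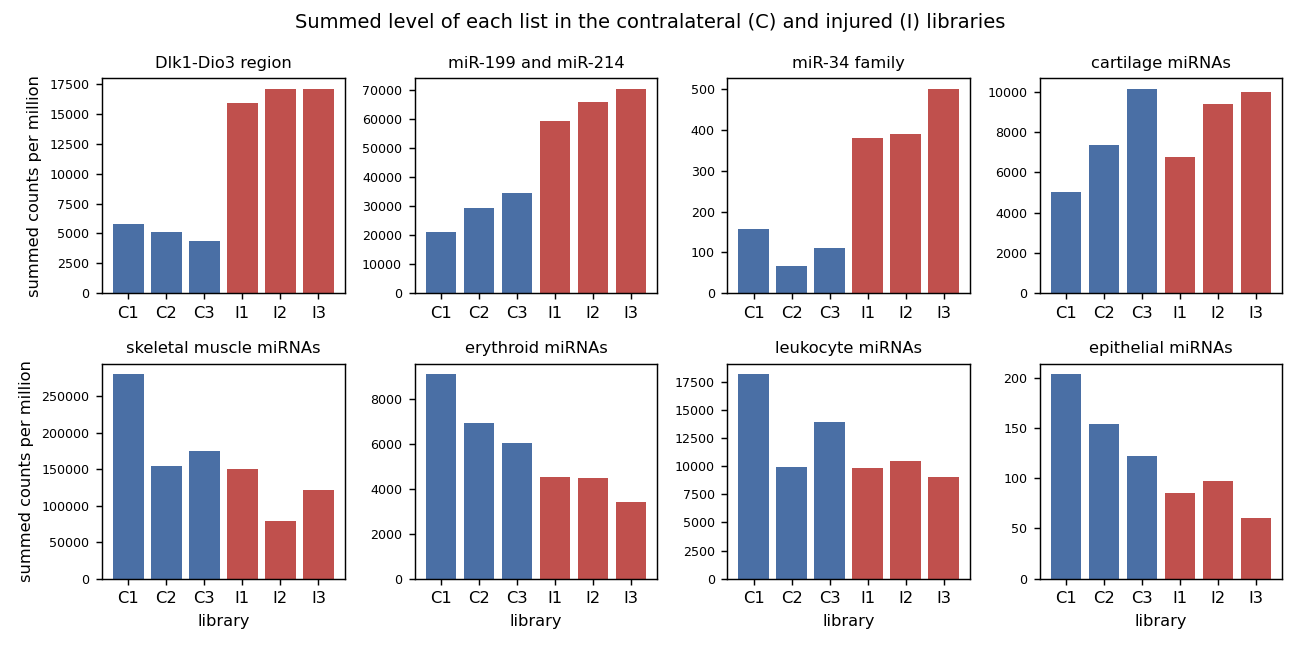
Summed level (CPM) of the tested members of 8 lists in the contralateral libraries (C1 to C3, blue) and the injured libraries (I1 to I3, red) of day 7, with miRNAs of identical counts entered once. The sums of the Dlk1-Dio3 region, of miR-199 with miR-214 and of the miR-34 family are higher in all injured libraries. Those of the erythroid, epithelial and skeletal muscle lists are lower, for muscle narrowly (154413 in C2 against 151212 in I1), and the cartilage sums overlap. C1 has the highest muscle sum, 280436.

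The miRNAs that mark chondrocytes did not pass the test. miR-140-5p measured 1912, 4983 and 6916 CPM in contralateral and 4344, 6039 and 6973 CPM in injured cartilage. The more even miR-140-3p measured 2873, 2082 and 2958 CPM against 2139, 2994 and 2636 CPM, with a log2 fold change of -0.0012 (95% confidence interval -0.46 to 0.46). The groups overlapped for both arms, and for both arms of miR-455, whose log2 fold changes were 0.28 and 0.59. Over the 4 cartilage miRNAs the median was 0.38, and 0.14 without contralateral replicate 1. Among other families, none of 5 miR-29, 12 miR-30, 7 miR-181, 20 miR-17/92 and 5 miR-378 family members was called, and their medians lay between -0.75 and -0.35. The Hox-cluster miRNAs had a median of 0.06 with none of 6 called. miR-10a-5p of this list had 10658 ± 2371 CPM in contralateral and 7299 ± 1297 CPM in injured cartilage (SD, n = 3 each, limma-voom adjusted p = 0.0803). The 23 tested miRNAs of the Sfmbt2 intron, another large imprinted cluster, had a median of 0.26 with none called.

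**Figure D5:**
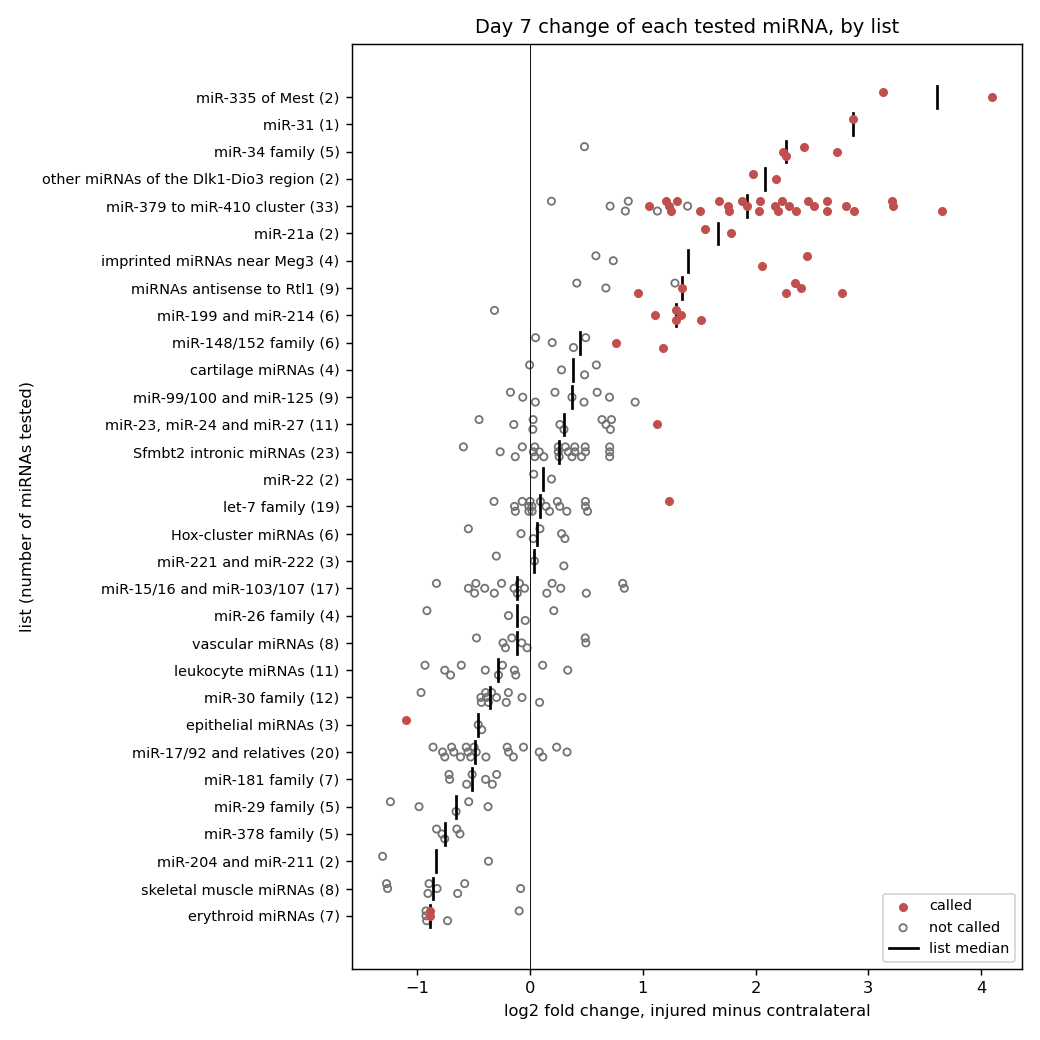
Log2 fold change (injured minus contralateral) of every tested member of 31 lists, ordered by list median (black bar), with called miRNAs filled in red. The miR-335, miR-31, miR-34 and Dlk1-Dio3 lists lie to the right. The erythroid and skeletal muscle lists, with medians of -0.89 and -0.86, lie wholly to the left. So do miR-204 with miR-211 (-0.83), the miR-378 (-0.75), miR-29 (-0.65) and miR-181 (-0.51) families and the epithelial list (-0.46). Most other lists straddle 0.

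Contralateral cartilage of day 7 was also compared with naive cartilage. By limma-voom, 0 of 428 miRNAs (0%) had an adjusted p under 0.05, 23 had an unadjusted p under 0.05, and the smallest adjusted p was 0.675. DESeq2 called 1 and the quasi-likelihood test of edgeR 0. For the 59 miRNAs that rose, the contralateral minus naive log2 fold change had a median of -0.25, and it was below 0 for 42 of them. This comparison shares the contralateral libraries with that of the injured knee, so a contralateral library that was low for a miRNA moved both. The values for single miRNAs were -0.49 for miR-335-3p, -0.25 for miR-541-5p, -0.81 for miR-31-5p, 0.59 for miR-34c-5p, -0.11 for miR-199a-3p and 0.30 for miR-21a-5p.

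The change against the contralateral knee was also set against that of day 1. The difference between the changes passed the test for 29 of the 428 miRNAs (6.78%), each with a larger log2 fold change at day 7, and all 29 were among the 63 called at day 7. The day 7 change, from the same libraries, is part of this difference. The shared sign and the overlap are therefore no separate support for the day 7 calls.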

How the data were processed

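Small RNA of pooled femoral cartilage was sequenced. The authors trimmed reads with Trim Galore 0.6.6, aligned them to mature miRBase sequences with Bowtie 1.3.0 and counted alignments with SAMtools 1.12, per the labels and the study's methods. The deposited table holds raw counts per mature miRNA and library, without normalisation. How reads matching several miRNAs, or either strand, were counted is not given in the sources used here. As deposited, 7 sets of tested miRNAs (15 in all) had the same counts in every library. Table rows were matched to samples by library number alone, since the prefixes differ.

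Groups came from the treatment labels. The study modelled mouse pools, which the labels do not give, so no pool term was used. miRNAs were filtered with filterByExpr in edgeR 4.0.16 (minimum count 10, minimum total 15), scaled by TMM and fitted with limma-voom (limma 3.58.1) over all 18 libraries with 1 mean per group. The p-values were adjusted by Benjamini-Hochberg over all 428 miRNAs, and an adjusted p under 0.05 is termed called. The procedure was tested on simulated counts. Counts of the replicates of a group differed by more than counting error in a chi-square comparison, which covers counting error only, and each library was used as 1 replicate. The p-values measure the spread between libraries of the same group, estimated together over all groups. The study pooled left and right knees separately, so naive libraries may hold both knees of the same mice and may not be independent. Positions and hosts are from RefSeq (GRCm38.p6) and GENCODE M21. Alternatives were other scalings and filters, edgeR's quasi-likelihood test, DESeq2 1.42.0, quality weights, the muscle level as covariate, only the groups compared and leaving out each library.

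Members, lists and tests were chosen with earlier results of these data known. Named were the 10 largest rises and 5 largest falls among calls of at least 10 CPM, the 5 smallest p-values, the 5 most abundant calls, miRNAs the study names, members of lists with up to 6 tested miRNAs (otherwise the most abundant and the one of smallest p) and all falls. Members of these lists that were not called are given mostly by range, and some further calls were named after their values were seen.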

Additional observations from a re-analysis of the deposited data

Results flagged for a closer look

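For 19 of the 98 miRNAs named by rule, the log2 fold change of injured against contralateral cartilage differed between day 7 and day 1. This was a limma-voom test of the difference itself (adjusted p between 0.000114 and 0.0325). Over all 428 miRNAs tested the count was 29 (6.78%). In each of the 19 the day 7 value was the higher. Many named miRNAs were picked by their day 7 change, which is part of this difference, so count and sign are no separate support. In the Dlk1-Dio3 region the day 7 minus day 1 difference was 4.40 for miR-380-3p, 2.70 for miR-1193-3p, 2.58 for miR-411-3p, 2.52 for miR-134-5p, 2.51 for miR-431-5p, 2.36 for miR-409-3p, 2.01 for miR-541-5p, 1.95 for miR-337-5p, 1.87 for miR-379-5p, 1.71 for miR-382-5p and 1.40 for miR-127-3p. Outside it the difference was 4.02 for miR-335-3p, 3.48 for miR-335-5p, 3.66 for miR-34b-3p, 2.57 for miR-34b-5p, 2.33 for miR-34c-5p, 2.67 for miR-31-5p, 1.75 for miR-21a-5p and 1.52 for miR-199a-5p. The days were measured in separate libraries.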

How the results depend on the processing

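The count of 63 called miRNAs lay between 49 and 73 under 9 alternatives and was 38 where at least 10 counts were required in every library, with 38 higher and 0 lower. That filter left 23 of the 63 miRNAs untested. Leaving out each library gave 48 to 70 calls, 48 to 67 of them higher. The 4 falls were the least stable count, with 0 by library totals, 2 with every miRNA of at least 1 count, 2 with same-count miRNAs kept once, 1 with only the groups compared, 11 by edgeR, 13 by DESeq2, 13 with the muscle covariate and 0 to 8 without 1 library. Of the 63 miRNAs, 24 were called under every alternative, and over all alternatives 863 values of the 63 miRNAs kept the call, 118 lost it and none changed direction. The contralateral against naive count was 0 except for 1 by DESeq2.

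Alternatives were computed singly for 12 miRNAs that were not called, and 4 of these changed sign. miR-199b-5p was 0.53 with quality weights, 0.38 with the muscle covariate and -0.98 to 0.80 without 1 library. The log2 fold change of miR-34a-5p was -0.0071 to 1.04 without 1 library. miR-140-3p was 0.0079 with DESeq2 size factors, 0.038 with at least 10 counts in every library, 0.055 with quality weights, 0.022 with same-count miRNAs kept once and -0.13 to 0.20 without 1 library. miR-148a-3p was -0.062 with quality weights and -0.23 to 0.94 without 1 library. Medians of lists without a call also changed sign, to -0.02 with quality weights for miR-22, as low as -0.35 for miR-221 and miR-222 and as high as 0.14 for the miR-26 family and 0.37 for the vascular list with the muscle covariate, and 0.02 for the miR-15/16 list without injured replicate 1. The cause of these changes was not tested. No paired analysis was possible because the labels do not tie an injured library to the contralateral library of the same mice. Depth limited the scarce miRNAs most, since 1 read was worth 1.37 CPM in the shallowest library.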
